A study of Mus musculus with 7 samples.

Results

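The uterine wall of the implantation site (myometrium/endometrium) was compared between Kdm6b cKO mice and control mice by single-cell RNA sequencing, with each cKO specimen paired to the control specimen of the same gestation day and experimental batch. All cells that the authors' annotation places at this location were taken, which gave 55536 of 107443 cells (51.7%) and 14 of 28 specimens. The 7 pairs came from day 12 in batches 1, 2 and 3, from day 14 and day 16 in batch 1, and from day 18 in batches 1 and 2. The groups are written WT (control) and KO (Kdm6b cKO) in the annotation. The allele, the Cre driver, the strain and the number of mice behind a specimen are not stated in the labels. Whether p-values measure the spread between mice or only between these specimens is therefore not known. The files hold cluster numbers, phase calls and quality measures per cell and no gene values, so Kdm6b itself was not analysed here, the tissue label could not be checked against markers, and clusters keep their numbers.

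KDM6B is a demethylase that removes the repressive trimethyl mark from lysine 27 of histone H3, and so can permit transcription of genes that Polycomb complexes keep silent. The myometrium is the smooth muscle layer that contracts at birth, and the endometrium is the inner layer that forms the decidua around the embryo. At the implantation site the wall lies against decidua and placenta, whereas tissue between the sites does not. The series is about the length of gestation, and the comparison asks which cell populations of the wall at the implantation site differ in share between cKO and control mice once day and batch are held equal.

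The 7 cKO specimens held 27244 cells and the 7 control specimens 28292 cells, with 2494 to 5720 cells per specimen. Depth differed between batches: the median cell of the implantation site had 3670 UMIs (counted molecules) in batch 1 and 8430 and 8049.5 UMIs in batches 2 and 3. Cells under 1000 UMIs made up 30.8% of batch 1, 5.33% of batch 2 and 8.12% of batch 3. A barcode occurred in more than 1 pool (repeat lane) for 337 of 55197 barcodes (0.611%). None of 8 specimen measures passed between genotypes (0% called, exact two-sided sign-flip permutation test over 7 pairs, smallest possible p 0.0156). The unadjusted exact p of these measures lay between 0.3125 for the median ribosomal percent and 1 for the median mitochondrial percent, and 0 were under 0.05. The mean cKO minus control difference was -149.7 cells ± 1856 (SD, n = 7 pairs), -104.5 ± 1554 median UMIs, 0.173 ± 1.65 percentage points of S calls and 0.148 ± 2.28 percentage points of G2M calls. The pairs went in both directions in each of these measures.

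The make-up of the wall differed less, in the median, within a cKO and control pair than between batches of the same day and genotype. The difference in composition was measured as the share of cells that would have to change cluster for 2 specimens to match (the sum of absolute share differences times 0.5). Over the authors' 19 coarse clusters (Louvain resolution 0.2) it was between 10.4% and 21.5% of cells within the 7 pairs, with a median of 12.4%. Between specimens of the same genotype and day in different batches it was between 14.8% and 48.3%, with a median of 30.8% over 8 comparisons. Between pools of 1 specimen, which differ by sampling and lane, it was between 2.50% and 15.2%, with a median of 5.88% over 22 comparisons. The pairs therefore lay between lanes and batches, and their range overlapped both. Over the 61 fine clusters (resolution 2) the medians were 19.2% within pairs, 37.8% between batches and 10.8% between pools. The largest fine-cluster differences within a pair were 31.1% at day 12 of batch 2, 30.6% at day 16 and 27.6% at day 18 of batch 1, and the smallest was 13.2% at day 14. Without cells under 1000 UMIs the medians within pairs were 13.8% (coarse) and 18.2% (fine), and those between batches were 25.2% and 34.9%.

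**Figure D1:**
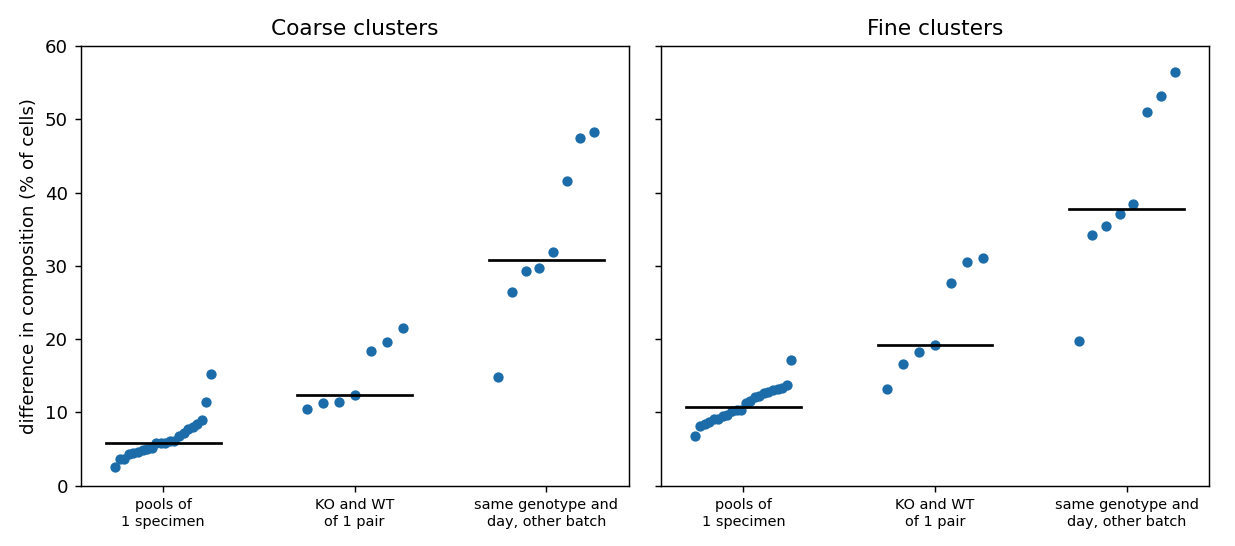
Difference in cluster composition (vertical axis, percent of cells) between pools of 1 specimen, between the KO (Kdm6b cKO) and WT (control) specimens of 1 pair, and between specimens of the same genotype and day in different batches, for coarse (left) and fine (right) clusters. Points are single comparisons and bars are medians; the 7 pairs have a median of 12.4% in coarse clusters, between the 5.88% of pools and the 30.8% of batches.

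No coarse cluster passed the paired test of its share between cKO and control specimens. Of 17 coarse clusters with at least 10 cells on average per specimen, 0 passed (0% called, edgeR quasi-likelihood test with the pair as block, Benjamini-Hochberg adjustment), and 0 had an unadjusted p under 0.05. DESeq2 with the same library sizes and limma also called 0, each with 0 unadjusted, and DESeq2 with median-of-ratios size factors called 0 with 1 unadjusted. Coarse clusters 17 and 18 (57 and 3 cells) were too small to be tested. None of the 19 clusters was higher in cKO in 7 of 7 pairs or lower in 7 of 7. Coarse clusters 5, 9 and 15 were higher in 6 pairs and coarse clusters 8 and 17 were lower in 6 pairs.

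The largest population, coarse cluster 0, had a lowest, median and highest share of 10.8%, 24.1% and 46.3% in cKO and of 11.1%, 23.5% and 43.0% in control specimens. These ranges overlap almost completely. Its log2 difference was 0.03 (SE 0.17, adjusted p = 0.900, edgeR), and the exact signed-rank interval over 7 pairs (coverage 95.3%) ran from 0.815-fold to 1.29-fold. Single pairs were far apart, from -7.47 percentage points at day 16 to 16.6 at day 12 of batch 2. Coarse cluster 1 had a mean share of 14.5% ± 2.85 in cKO and 15.3% ± 3.44 in control specimens (SD, n = 7), with an interval of 0.736-fold to 1.17-fold. Coarse cluster 2 had 11.0% ± 2.41 and 12.4% ± 3.59, with an interval of 0.651-fold to 1.28-fold. Coarse cluster 3 was much less closely bounded, at 10.4% ± 6.10 and 10.7% ± 4.86, with an interval of 0.338-fold to 1.56-fold.

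Over all specimens together, coarse cluster 4 is the largest of 3 clusters made mostly of cells under 1000 UMIs. It had a median of 550 UMIs and 96.3% of its cells under that number. The others are coarse cluster 6 (median 620 UMIs, 83.7%) and coarse cluster 16 (median 634 UMIs, 78.4%). In batch 2 these 2 were not shallow. Specimen medians of coarse cluster 6 were 3436 to 11217.5 UMIs there, with 17.3% to 35.2% of cells under 1000 UMIs. Coarse cluster 16 held 3 to 6 cells per specimen of batch 2, with 0% under 1000 UMIs. The share of coarse cluster 4 was 0.905%, 9.82% and 24.9% (lowest, median, highest) in cKO and 0.570%, 13.9% and 22.6% in control specimens. The difference between the genotypes changed sign between pairs, from -12.8 percentage points at day 16 to 10.8 at day 18 of batch 1. Pools of a single specimen differed by as much as 11.2 percentage points in this cluster. Its log2 difference was 0.44 (SE 0.27, adjusted p = 0.521, edgeR). The 2 other clusters with the smallest p were coarse cluster 15 (269 cells, log2 difference 0.69, SE 0.42) and coarse cluster 8 (1002 cells, log2 difference -0.52, SE 0.33), with the same adjusted p of 0.521 (edgeR). Coarse cluster 15 was at 0.252%, 0.458% and 0.913% in cKO and at 0.0517%, 0.188% and 0.967% in control specimens, so the control range encloses the cKO range. Coarse cluster 8 was at 0.120%, 0.667% and 4.17% in cKO and at 0.236%, 0.471% and 8.40% in control specimens. Its largest difference was -4.23 percentage points, at day 12 of batch 3.

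Removing cells under 1000 UMIs left 43758 cells and took away nearly all of coarse cluster 4 and most of coarse cluster 6. The mean share of coarse cluster 4 became 0.715% ± 0.717 in cKO and 0.481% ± 0.429 in control specimens (SD, n = 7). Coarse cluster 6 went from 6.30% ± 3.92 and 6.21% ± 3.75 to 1.36% ± 0.915 and 1.37% ± 0.817 (cKO and control, SD, n = 7). The other large clusters kept wide pair differences. For coarse cluster 0 they then ran from -14.8 percentage points at day 16 to 17.4 at day 12 of batch 2. None of the clusters passed among the retained cells either.

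**Figure D2:**
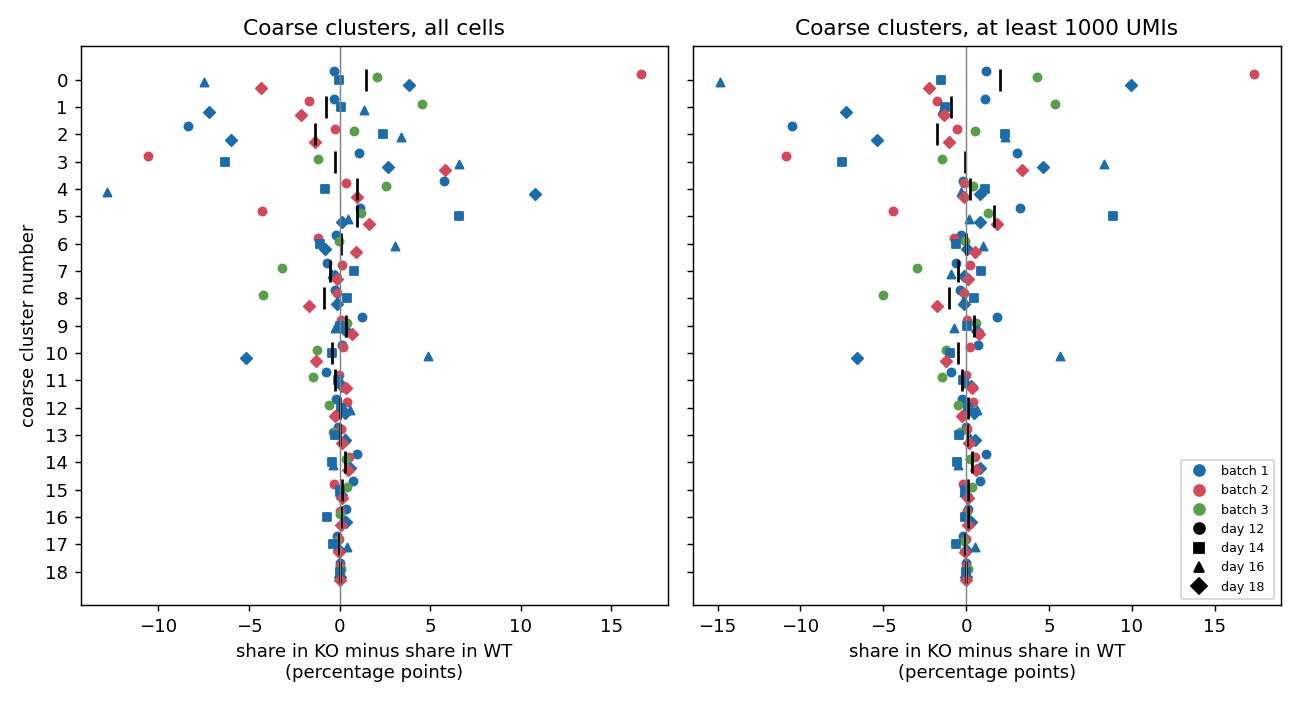
Share in KO (Kdm6b cKO) minus share in WT (control), in percentage points, for each coarse cluster (rows) and each of the 7 pairs, with all cells (left) and with cells of at least 1000 UMIs (right). Colour gives the batch, marker shape the gestation day and the vertical tick the mean; differences span both signs in the large clusters, from -7.47 to 16.6 points in coarse cluster 0 and from -12.8 to 10.8 in coarse cluster 4 with all cells.

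At the finer resolution, the clusters with the smallest p were fine clusters 13 and 0, both parts of coarse cluster 0, and they lay in opposite directions. Of 48 fine clusters tested, 0 passed (0% called, edgeR), while 2 had an unadjusted p under 0.05, against 3 by DESeq2 and 3 by limma, both also with 0 called. Across the 48 clusters the median log2 difference was 0.01 and the median of its absolute value 0.27. Of all 61 clusters, 1 was higher in cKO in 7 of 7 pairs, 7 were higher in 6 pairs and 4 were lower in 6 pairs.

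Fine cluster 13 (1058 cells, median 8355.5 UMIs) took 0.751%, 1.00% and 10.5% of cKO specimens and 0.375%, 0.906% and 2.16% of control specimens (lowest, median, highest). It was higher in cKO in 6 of 7 pairs, and the ranges overlap. The pair of day 12 in batch 2 was far from the rest, at 10.5% in cKO against 2.16% in control. The other pairs differed by -0.0934 to 1.35 percentage points. The exception was day 14, at 1.00% in cKO and 1.09% in control. On the log2 scale cKO exceeded control by 0.84 (SE 0.29, adjusted p = 0.419, edgeR), and by 0.59 without the day 12 pair of batch 2. By batch, the mean log2 ratio was 0.50 over the 4 pairs of batch 1, 1.54 over the 2 pairs of batch 2 and 0.75 in the pair of batch 3. The signed-rank interval, which is not adjusted for the number of clusters, ran from 1.24-fold to 2.91-fold.

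Fine cluster 0 (2163 cells, median 8932 UMIs) took 0.215%, 1.56% and 10.2% of cKO specimens and 0.517%, 2.34% and 9.64% of control specimens. It was lower in cKO in 6 of 7 pairs, and the exception was day 18 of batch 2, at 10.2% in cKO and 9.64% in control. In control specimens it was at 0.517% to 1.98% at day 12 and at 8.20% to 9.64% at days 16 and 18. In cKO specimens it was at 0.215% to 1.13% at day 12, 1.56% at day 16, and 5.69% and 10.2% at day 18. The widest gap was therefore that of day 16, at 1.56% against 8.20%. Its fitted log2 difference was -0.80 (SE 0.29, adjusted p = 0.419, edgeR), and -0.53 without the day 16 pair. Its unadjusted signed-rank interval ran from 0.332-fold to 0.888-fold. The change of this cluster with day in control specimens is a description and was not tested here.

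Since both clusters lie in coarse cluster 0, which did not pass as a whole, each fine cluster was also tested as a share of its own coarse cluster. Here 0 of 38 passed (0% called, edgeR) and 4 had an unadjusted p under 0.05. Fine cluster 13 took 9.08% ± 7.25 of coarse cluster 0 in cKO and 4.95% ± 3.03 in control specimens (SD, n = 7), higher in 6 of 7 pairs, with a log2 difference of 0.81 (edgeR, SE 0.20, adjusted p = 0.106). DESeq2 called this cluster alone (adjusted p = 0.0266), and edgeR called it without the day 14 pair (adjusted p = 0.0212). Fine cluster 0 took 12.04% ± 9.80 and 19.9% ± 15.97, lower in 6 of 7 pairs, with a log2 difference of -0.83 (edgeR, SE 0.26, adjusted p = 0.139). Within coarse cluster 0 of day 16, fine cluster 0 made up 9.73% in cKO and 34.8% in control, and at day 18 of batch 1 it made up 23.6% and 46.3%. Of the other members of that coarse cluster, fine clusters 5 and 29 were each higher in cKO in 6 of 7 pairs, and fine cluster 49 (132 cells) was lower in 5. Fine clusters 2 and 4 were higher in 3 of 7 pairs and fine clusters 6 and 57 in 4 of 7. Fine clusters 2, 6, 29, 49 and 57 are named after their values were seen.

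The other fine clusters near the top of the within-cluster test were fine clusters 24 and 12. Fine cluster 24 belongs to coarse cluster 1 and is made of cells called as dividing, with 70.2% in G2M and 25.2% in S. It took 14.6% ± 5.71 of coarse cluster 1 in cKO and 10.4% ± 5.07 in control specimens (SD, n = 7), higher in 6 of 7 pairs, with a log2 difference of 0.53 (edgeR, SE 0.17, adjusted p = 0.139). Fine cluster 12, a part of coarse cluster 2 named here after its values were seen, had a log2 difference of 0.47 (edgeR, SE 0.16, adjusted p = 0.139). Fine cluster 8, also of coarse cluster 1, took 2.15%, 3.18% and 4.98% of cKO and 2.95%, 4.55% and 7.27% of control specimens. It was lower in 6 of 7 pairs and its log2 difference was -0.41 (SE 0.23, adjusted p = 0.530, edgeR).

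The remaining fine clusters among the 5 largest did not pass either. Fine cluster 1, the main part of coarse cluster 4, had a log2 difference of 0.33 (SE 0.31). Fine cluster 3 had one of 0.02 (SE 0.24) and an interval of 0.667-fold to 1.44-fold. Fine cluster 4 had one of 0.16 (SE 0.23) and an interval of 0.855-fold to 1.49-fold. Fine cluster 5 (3624 cells) was higher in cKO in 6 of 7 pairs, at 2.37%, 2.82% and 20.9% in cKO and at 1.26%, 2.50% and 18.1% in control specimens. Its log2 difference was 0.39 (SE 0.28, adjusted p = 0.561, edgeR). Fine cluster 38 (281 cells), the third by p, had a log2 difference of 0.81 (edgeR, SE 0.41, adjusted p = 0.530) and was higher in 6 of 7 pairs. Its counts were close to those of coarse cluster 15 (269 cells), with 49 in cKO and 5 in control in each at day 12 of batch 1. The results of these clusters may therefore not be separate.

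Fine cluster 51 was the only one with the same sign in all 7 pairs, and it is made mostly of shallow cells. It held 125 cells with a median of 537 UMIs, and 84.8% of them were under 1000 UMIs. Its share was 0.0194%, 0.0770% and 1.64% in cKO and 0%, 0.0284% and 1.01% in control specimens. It was too small for the count test. Of its cells, 61 and 39 came from the cKO and control specimens of day 12 in batch 3, and the sign of other pairs rests on single cells, such as 1 against 0 at day 18 of batch 1, 2 against 0 at day 12 of batch 1, and 1 against 2 at day 16, where the cKO specimen held fewer cells. Among cells of at least 1000 UMIs, 19 remained, and cKO was higher in 3 pairs and lower in 2.

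**Figure D3:**
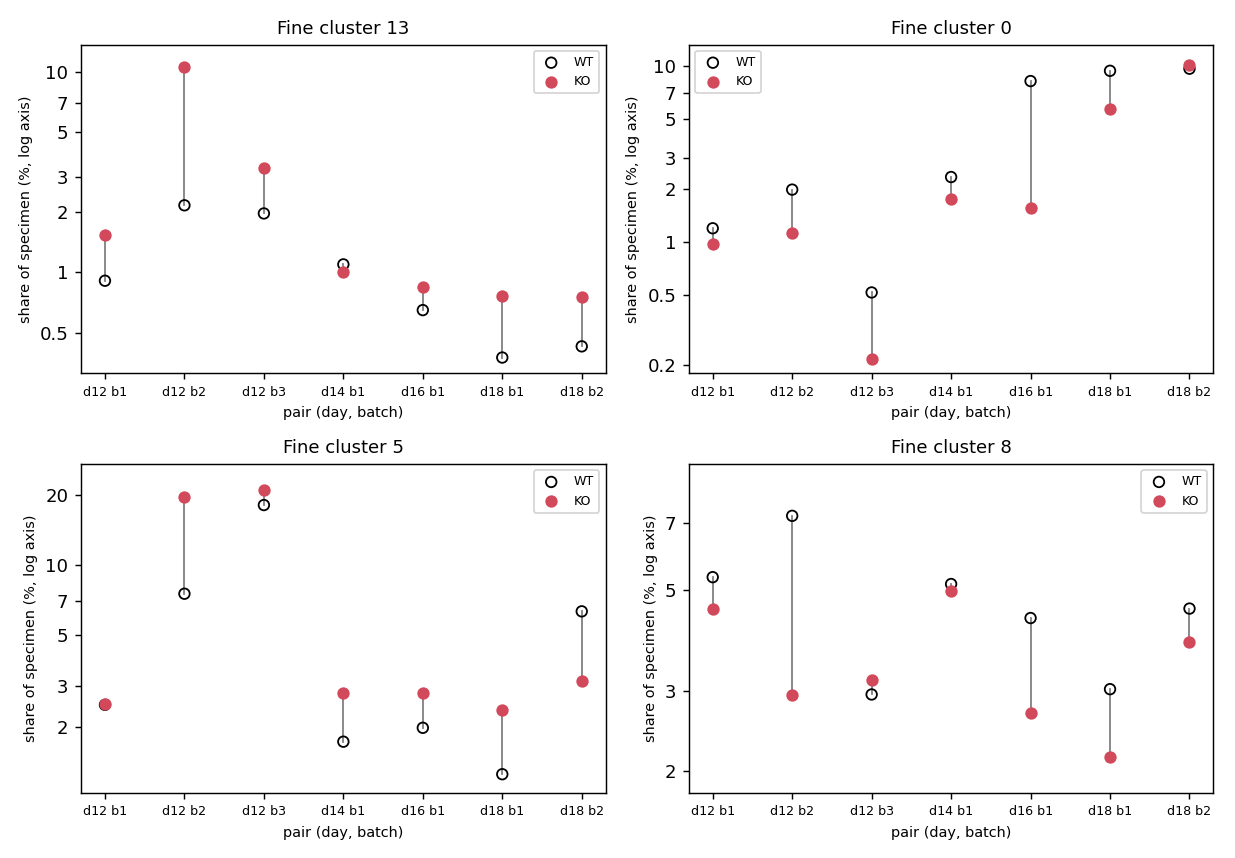
Share of the specimen's cells (percent, logarithmic vertical axis, a different range in each panel) in fine clusters 13, 0, 5 and 8 for each of the 7 pairs; filled points are KO (Kdm6b cKO), open points WT (control), d is the gestation day and b the batch. Fine cluster 13 is higher in KO in 6 of 7 pairs with the widest gap at day 12 of batch 2, and fine cluster 0 is lower in 6 of 7 with the widest gap at day 16.

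Phase calls and ribosomal content were then compared inside coarse clusters, in the 10 coarse clusters (0 to 7, 9 and 10) that held at least 20 cells in both specimens of enough pairs. Each of the 10 had all 7 pairs. S calls passed in 0 of 10 (0% called, limma on log2 odds with the pair as block), with 2 at an unadjusted p under 0.05. G2M calls passed in 0 of 10 (0% called, limma), with 0 unadjusted. The exact sign-flip permutation test passed 0 of 10 for each, with 1 unadjusted for S and 1 for G2M. Its smallest possible p with 7 pairs is 0.0156, so 1 cluster alone could not pass it after adjustment over 10 clusters.

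Coarse cluster 1 had more cells called S in cKO than in control in 7 of 7 pairs. The S share was 8.70%, 17.7% and 23.0% in cKO and 7.01%, 13.3% and 20% in control specimens (lowest, median, highest), from 338 to 791 cells of the cluster per specimen. The ranges overlap, because pairs differ from one another by more than the genotypes do. The mean difference was 3.36 percentage points ± 1.67 (SD, n = 7 pairs), from 0.704 at day 14 to 5.68 at day 16. The log2 odds differed by 0.40 (SE 0.12, adjusted p = 0.0975, limma), and the exact permutation p of 0.0156 is the smallest that 7 pairs allow (0.156 after adjustment over 10 clusters). The call turned on the setting. With 50 in place of 20 cells per specimen it passed (adjusted p = 0.0245, limma), but this setting left the values of coarse cluster 1 unchanged. Every specimen held at least 338 of its cells, so only other clusters in the fit changed. The S difference also passed among cells of at least 1000 UMIs (adjusted p = 0.0413, limma) and without the day 14 pair (0.0405). Over the other pairs left out the adjusted p ran from 0.128 to 0.364 (limma).

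Median UMIs in coarse cluster 1 were higher in cKO in 5 of 7 pairs, by 406.5 ± 596 on average (SD, n = 7). At day 12 the UMI differences were 528, 358.5 and 1265 in batches 1, 2 and 3, beside S differences of 4.03, 3.56 and 1.69 percentage points. They were 954 beside 0.704 percentage points at day 14, and 343 beside 5.68 at day 16. At day 18 they were -486 beside 4.39 in batch 1 and -117 beside 3.43 in batch 2. The part of depth in the S difference was not tested. Among cells of 3000 to 8000 UMIs, a window set after the values were seen, the log2 odds difference was 0.31 (SE 0.18, adjusted p = 0.294, limma). G2M calls in the same cluster were at 15.3% ± 4.94 in cKO and 12.05% ± 3.93 in control specimens, higher in 5 of 7 pairs (log2 odds 0.42, SE 0.20, adjusted p = 0.553, limma). Of the fine clusters inside coarse cluster 1, fine cluster 24 had the highest S share, at 26.4% in cKO and 25.2% in control specimens, higher in 4 of 7 pairs. Fine cluster 8 had 17.9% and 12.8%, higher in 5 of 7 pairs, and fine cluster 27 had 20.6% and 18.04%, higher in 5 of 7 pairs. Fine cluster 3, the largest part at 39.0% of coarse cluster 1 in cKO and 37.3% in control, had 15.2% and 13.8%, higher in 4 of 7 pairs. Fine cluster 20 had 4.98% and 5.52%, higher in 3 of 7 pairs. The part of the sub-clusters in the S calls was not tested.

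Coarse cluster 2 lay the other way, with 16.2% ± 6.40 S calls in cKO and 19.1% ± 6.20 in control specimens. It was lower in 5 of 7 pairs, with a log2 odds difference of -0.33 (SE 0.14, adjusted p = 0.233, limma). Its cells also had fewer UMIs in cKO in 6 of 7 pairs, with a mean difference of -761.6 ± 831 (SD, n = 7; log2 difference -0.22, SE 0.09, adjusted p = 0.393, limma). Coarse cluster 10, the third by p for S calls, had a log2 odds difference of 0.55 (SE 0.35, adjusted p = 0.477, limma). For median UMIs 0 of 10 clusters passed (0% called, limma), with 1 at an unadjusted p under 0.05. For G2M calls the smallest p after coarse cluster 1 belonged to coarse cluster 6 (log2 odds -0.22, SE 0.15) and coarse cluster 5 (0.26, SE 0.20), each with an adjusted p of 0.750 (limma). In coarse cluster 6, G2M calls were at 7.14% to 9.62% in batch 2, where specimen medians were 3436 to 11217.5 UMIs. They were at 21.3% to 32.2% in batches 1 and 3, where medians were 581 to 756 UMIs. The part of depth in these calls was not tested.

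The ribosomal percent, the share of a cell's UMIs from ribosomal protein genes, passed in 0 of 10 clusters (0% called, limma on specimen medians), with 2 at an unadjusted p under 0.05. In coarse cluster 10 the specimen median was lower in cKO in 7 of 7 pairs, at 14.6%, 16.02% and 28.6% in cKO and 15.2%, 17.1% and 29.7% in control specimens. The mean difference was -0.93 percentage points (SE 0.40, adjusted p = 0.227, limma), from -2.09 at day 18 of batch 2 to -0.0690 at day 16. The exact permutation p was 0.0156, or 0.156 after adjustment. In coarse cluster 5 it was higher in 6 of 7 pairs, by 0.95 percentage points (SE 0.41, adjusted p = 0.227, limma). The third was coarse cluster 0, at -0.55 percentage points (SE 0.46, adjusted p = 0.752, limma). The batches differed by far more than the genotypes in this measure, with control medians of coarse cluster 10 at 15.2% to 17.1% in batch 1 and at 28.7% to 29.7% in batches 2 and 3.

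**Figure D4:**
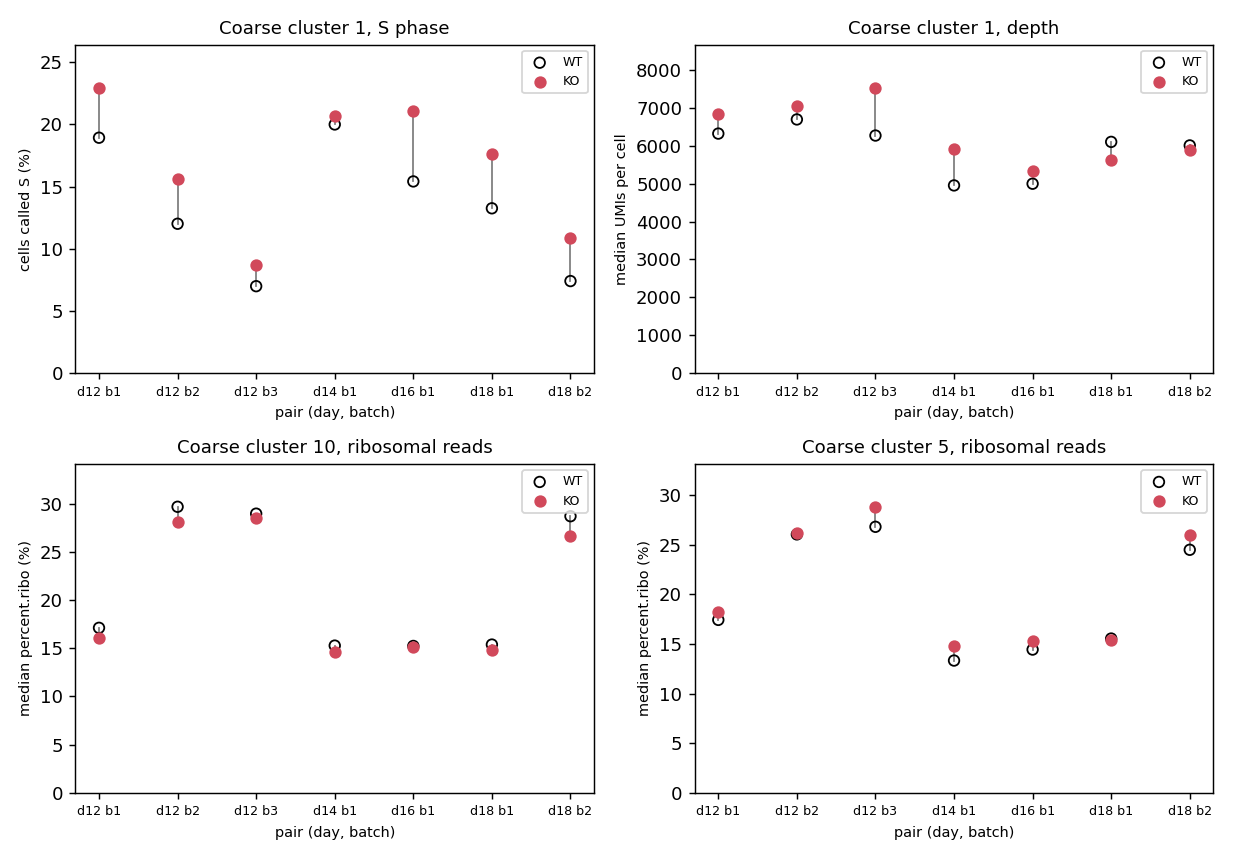
Values within coarse clusters for each pair, with KO (Kdm6b cKO) as filled and WT (control) as open points: the percent of cells called S and the median UMIs per cell in coarse cluster 1 (top), and the median percent of UMIs from ribosomal protein genes in coarse clusters 10 and 5 (bottom). The S share is higher in KO in 7 of 7 pairs and median UMIs in 5 of 7; the ribosomal percent of coarse cluster 10 is lower in KO in 7 of 7.

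Whether the genotype difference moved with gestation day was tested as a slope per day in each fine cluster. None of 48 passed (0% called, edgeR), with 2 at an unadjusted p under 0.05, against 4 by DESeq2 and 5 by limma, both with 0 called. The smallest p belonged to fine cluster 18 (log2 slope per day 0.32, SE 0.13), fine cluster 34 (0.38, SE 0.17) and fine cluster 28 (0.30, SE 0.15), all with an adjusted p of 0.820 (edgeR). In fine cluster 34, which held 75.7% G2M calls, cKO was below control in 3 of 3 pairs of day 12, for example at 0.503% against 2.68% in batch 1. It was above control at day 14, at day 16 and at day 18 of batch 1, and below it at day 18 of batch 2 (0.514% against 0.682%). All pairs with cKO above control were therefore of batch 1.

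The day comparison rested on the pairs included. Without the day 18 pair of batch 2, fine clusters 14, 17 and 34 passed, all with a positive slope (adjusted p = 0.0131, 0.0390 and 0.0416, edgeR). Fine clusters 14 and 17 are named after their values were seen. Fine cluster 14 was at 0.465% in cKO against 4.04% in control at day 12 of batch 2, and at 8.14% against 1.05% at day 16. At day 18 it was at 2.31% against 0.589% in batch 1 and at 0.830% against 2.50% in batch 2, so the 2 pairs of that day went opposite ways. Fine cluster 17 was at 0.759% against 7.69% at day 12 of batch 2, and at 3.73% against 0.367% at day 16. The other pairs of those days did not all follow: at day 12 it was at 10.06% against 8.30% in batch 1 and at 0.646% against 2.53% in batch 3, and at day 18 at 1.26% against 0.375% in batch 1 and at 0.435% against 1.51% in batch 2. Day 14 and day 16 had 1 pair each, both of batch 1.

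The genotype difference at the implantation site differed from that between the sites in 6 of 50 fine clusters (12% called, edgeR, test of genotype by location with the pair as block). In 5 of them (10%) the log2 ratio of cKO to control was lower at the implantation site, and in fine cluster 0 it was higher there. The comparison used the 14 specimens of the implantation site and 8 inter-implantation specimens of days 12 to 18, which form 4 pairs, 1 for each day, all of batch 2. The labels do not say whether the sites were sampled from the same mice, and no mouse entered the fit. DESeq2 called 7, limma 5 and edgeR without the block 5. An unadjusted p under 0.05 was reached by 7 clusters with edgeR.

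Fine cluster 13 had a mean log2 ratio of 0.83 ± 0.73 (SD, n = 7 pairs) at the implantation site and of 4.04 ± 0.53 (SD, n = 4 pairs) between the sites. Its control share was 1.08% ± 0.717 at the implantation site and 0.342% ± 0.169 between the sites. The difference of the log2 differences was -3.23 (SE 0.54, adjusted p = 0.000207, edgeR). Fine cluster 28 had mean log2 ratios of 0.34 ± 1.12 and 4.83 ± 0.25, and a difference of -4.73 (SE 0.67, adjusted p = 4.30e-05, edgeR). At the implantation site it was at 0.438% ± 0.219 in cKO and 0.420% ± 0.284 in control specimens, higher in 4 of 7 pairs. Its highest ratio there, at day 18 of batch 2, rests on 4 against 1 cells. Between the sites the control specimens held 1, 6, 6 and 11 of its cells at days 12, 14, 16 and 18. The day 12 count is under a limit of 3 cells per specimen, so that ratio, and with it the SD of 0.25, is loosely determined. No pair at the implantation site reached the lowest of the 4 ratios between the sites in either cluster. Coarse cluster 13 held as many cells as fine cluster 28 in each specimen of the implantation site. Its specimen medians there were 1011 to 1447.5 UMIs in batch 1, with 18.75% to 47.6% of cells under 1000 UMIs. In batches 2 and 3 they were 4645 to 46803 UMIs, with 0% under 1000. Batch 2 specimens held 1 to 10 of these cells. The part of depth in the site difference was not tested.

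Fine cluster 42 had mean log2 ratios of -0.26 ± 1.10 at the implantation site and 3.78 ± 1.34 between the sites, with a difference of -3.85 (SE 0.81, adjusted p = 0.00207, edgeR). At the implantation site it held only 1 to 18 cells per cKO specimen and 3 to 26 per control specimen. Between the sites at day 18 this cluster was at 0.320% in cKO and at 0 of 4726 cells in control, at least 5.05-fold higher against the limit of 3 cells per specimen. That pair's ratio, and so the mean and the fitted difference, depends on the 0.5 added or on the prior count. The other 3 pairs between the sites had a mean log2 ratio of 3.36 ± 1.28 (SD). Fine cluster 9 had 0.43 ± 0.65 and 2.70 ± 1.26, with a difference of -2.31 (SE 0.57, adjusted p = 0.00807, edgeR). Fine cluster 7 had -0.30 ± 0.69 and 2.04 ± 1.55, with a difference of -2.43 (SE 0.63, adjusted p = 0.0102, edgeR). The ratios of clusters 9 and 7 overlap between the sites, at the day 12 pair between the sites. Fine cluster 0 was lower in cKO at both, with mean log2 ratios of -0.82 ± 0.80 and -2.48 ± 0.96 that overlap between the sites, and a difference of 1.70 (SE 0.54, adjusted p = 0.0435, edgeR). In control specimens it averaged 4.75% ± 4.11 at the implantation site (n = 7) and 15.97% ± 11.8 between the sites (SD, n = 4).

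Site and batch are partly the same split here, because batch 1 and batch 3 hold none of these inter-implantation specimens. Days were also spread unequally, with day 12 in batches 1, 2 and 3 at the implantation site, and the fit held no term for genotype by day. Between the sites, the log2 ratio of fine cluster 7 was -0.211 at day 12 and 2.35 to 3.25 later. That of fine cluster 9 was 1.04 at day 12 and 2.54 to 4.01 later. The part of day in the site difference was not tested. Within batch 2, with 2 pairs at the implantation site (days 12 and 18) and 4 between the sites (days 12, 14, 16 and 18), 2 of 46 clusters passed (edgeR). Fine cluster 42 was one of them, at -4.69 (SE 1.25, adjusted p = 0.0113, edgeR), and the other was not among the 6 called with all specimens. At the implantation site of batch 2 fine cluster 42 held 18 cells in cKO and 26 in control at day 12, and 1 and 7 at day 18. Between the sites at day 18 it held 6 and 0, so its size in batch 2 depends on single cells. The other 5 named clusters kept their direction there, with differences of -3.81 for fine cluster 28, -2.46 for 13, -2.79 for 9, -2.78 for 7 and 2.14 for 0, and adjusted p from 0.0951 to 0.135 (edgeR). Without the inter-implantation pair of day 14, or without that of day 16, 3 clusters passed in place of 6, and these were fine clusters 13, 28 and 42 in both fits. The call of fine cluster 0 also ended without either the batch 1 or the batch 2 pair of day 12 or of day 18, without the day 14 pair of the implantation site, without the block and under limma. Its adjusted p ran from 0.00654 to 0.239 over the alternatives run (edgeR, DESeq2 and limma).

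**Figure D5:**
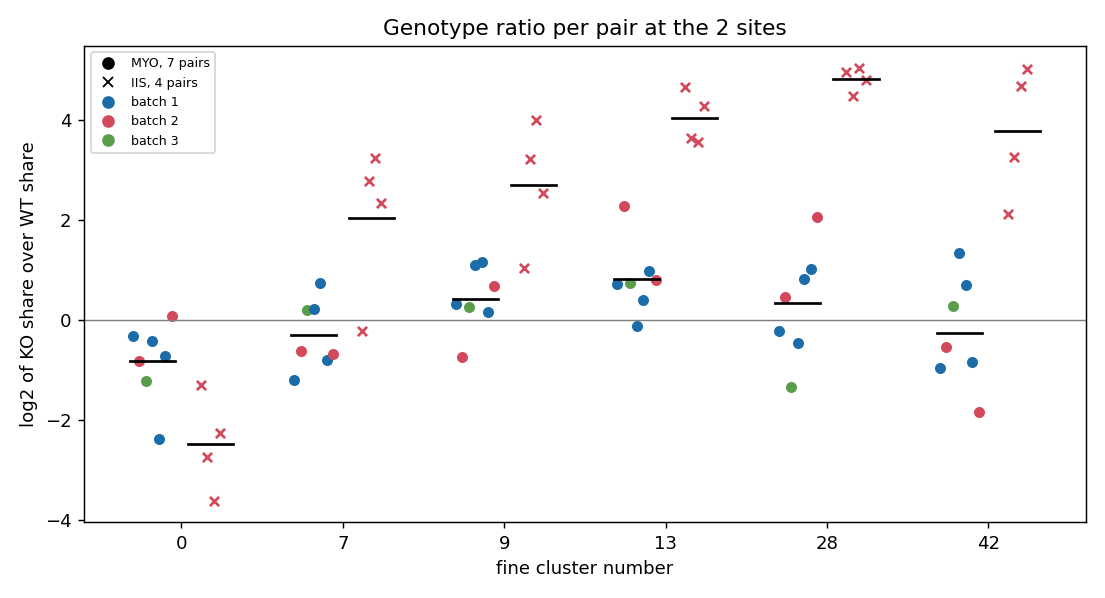
Log2 of the KO (Kdm6b cKO) share over the WT (control) share in each pair for the 6 fine clusters that differed between sites, at the implantation site (MYO, circles, 7 pairs) and between the sites (IIS, crosses, 4 pairs, all batch 2). Black bars are means and colour is the batch; in fine cluster 13 the means are 0.83 and 4.04, and in fine cluster 28 they are 0.34 and 4.83.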

How the data were processed

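Per the file headers, the deposited annotation gives each cell's UMI and gene counts (whole numbers, not normalized by the authors), the percent of UMIs from mitochondrial and ribosomal protein genes, a phase call, cluster numbers and embedding scores; the authors' score values were not used. Cell Ranger, Seurat and mm10 are named in the submitters' processing notes, with no versions. The authors filtered the cells and assigned them to specimens from the hashing reads before deposit. How they did so is not stated, and no doublet caller was run here.

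Cells were summed per specimen over pools, so the specimen was the replicate. Clusters with a mean of at least 10 cells were tested with edgeR 4.0.16 (quasi-likelihood, specimen total as library size, pair as block). Parent shares used the log of the cells of the coarse cluster as offset. Log2 odds (0.5 added) and medians were tested with limma 3.58.1. DESeq2 1.42.0, TMM, centred log ratios, depth cuts, single batches and left-out pairs or pools were alternatives. P-values were adjusted by Benjamini-Hochberg at 0.05. The tests were checked on simulated data. Specimens of a pair deviated together from the mean of their genotype and day (correlation over 48 fine clusters 0.901, 0.682 and 0.882 in batches 1, 2 and 3 at day 12, and 0.748 at day 18), and pairs come from the labelled day and batch. Clusters are named where they passed, otherwise the 3 with the smallest p, with the 5 largest by mean share and those of 1 sign in 7 pairs. The comparison, the lists and the tests were chosen with earlier results of these data known.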

Additional observations from a re-analysis of the deposited data

Results flagged for a closer look

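In 5 of 36 series of paired differences examined, 1 pair lay far from the other 6. For independent, normally distributed values chance alone gives such a gap in about 1 of 20 groups. Whether that rate holds for differences of shares was not tested, and fine cluster 13 had already been named for its small p. At day 12 of batch 2 the cKO minus control difference was 8.36 percentage points for fine cluster 13 (other pairs -0.0934 to 1.35), 11.96 for fine cluster 5 (others -3.15 to 2.82) and -4.33 for fine cluster 8 (others -1.65 to 0.230). These 3 shares come from the same pair of specimens and are not separate events. At day 12 of batch 3 the difference of fine cluster 51 was 0.634 percentage points (others 0.00513 to 0.130). At day 16 the median mitochondrial percent was higher in cKO by 1.36 percentage points, while the other 6 pairs lay between -0.358 and -0.0584.

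The genotype difference depended on the site in 6 fine clusters by the interaction test (edgeR). The log2 difference at the implantation site minus that between the sites was 1.70 for fine cluster 0, -2.43 for 7, -2.31 for 9, -3.23 for 13, -4.73 for 28 and -3.85 for 42. The inter-implantation pairs were all of batch 2, and site and batch cannot be told apart outside that batch. The spread of days also differed between the sites, within that batch too.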

How the results depend on the processing

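Counts of clusters or measures past the threshold stayed within 1.5 times their value in 141 repeats under the alternatives and moved further in 10. Outside the comparison of sites the main count was 0, so an unchanged count there means only that 0 stayed 0. Repeats with left-out pairs or single batches also held fewer specimens than the main fit. For fine clusters within their coarse cluster the count was 0, and 1 by DESeq2 and without the day 14 pair (range 0 to 1 over left-out pairs). For S calls it was 0, and 1 with at least 1000 UMIs, with at least 50 cells, and within batch 1, where the cluster was coarse cluster 7 (range 0 to 1 over left-out pairs). For the slope on day the range over left-out pairs was 0 to 3. For the sites the count was 6, with 2 within batch 2 and 3 to 8 over left-out pairs. The cause of these moves was not tested.

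The replicate block changed no count of calls at the implantation site, where 0 passed in the 7 comparisons run with day in place of the pair. The lowest adjusted p without the pairing was 0.187 (edgeR, within coarse clusters). Between the sites 5 passed without the block, and fine cluster 0 lost its call.

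Signs turned only in differences that did not pass in any alternative run. Coarse cluster 0 (0.03) became -0.044 with TMM, -0.22 with median-of-ratios factors, -0.020 with limma, -0.018 with limma at 1000 UMIs and -0.085 in batch 1, and ran from -0.068 to 0.13 over left-out pairs. Coarse clusters 1, 2 and 3 ran from -0.16 to 0.043, -0.24 to 0.0045 and -0.37 to 0.15 over left-out pairs, and coarse cluster 3 was 0.15 in batch 1. Fine cluster 3 (0.02) became -0.0057 with TMM, -0.094 with median-of-ratios factors, -0.035 and -0.020 with the same 2 limma fits, -0.17 in batch 1, -0.00053 and -0.0018 without pool SCG8 or SCG9, and ran from -0.10 to 0.18. G2M calls of coarse cluster 5 (0.26) became -0.070 in batch 1. The fits without coarse clusters 4, 6 and 16, the window of 3000 to 8000 UMIs, the single-batch fits within clusters and by day, limma at 1000 UMIs, other tools for day and site, and the site fit without the block were chosen after seeing the data.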

Other observations

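Hashing oligonucleotides, which assign cells to specimens, gave fewer UMIs per cell in cKO than in control specimens in 7 of 7 pairs. The specimen medians averaged 1214 ± 464 (SD, n = 7) in cKO and 1321 ± 490 in control specimens, with paired differences from -277 at day 18 of batch 2 to -13 at day 16. The exact two-sided sign-flip permutation p was 0.0156, the smallest that 7 pairs allow, and the measure was looked at after the values were seen. Its part in the cluster shares was not tested.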
